A study of Salmo salar with 6 samples.

Results

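The genes of the mitochondrial respiratory chain and of ATP synthase were followed in the head kidney of Atlantic salmon fed a diet with or without a plant extract. Members were taken by symbol: nduf for complex I, sdh for complex II, uqcr and cyc1 for complex III, cox followed by a digit for complex IV, and atp5 for complex V. Probes on the array carry RefSeq accessions, and through these 59 of the 66 symbols of this kind in the RefSeq gene table had a probe, out of 25460 genes with a matched probe in all. Complex I had 21 members, complex II had 6, complex III had 3, complex IV had 16 and complex V had 13. By symbol, 43 of the 59 genes were classed as subunits and 16 as assembly factors or inhibitors of a complex. The class follows the symbol alone, so cox7a2l counts as a subunit. No probe was matched here for ndufs7, ndufaf8, sdha, sdhaf3, cox14, atp5f1 or atp5mf, so these were not analysed. Any gene of these complexes that carries another symbol in that table was not looked for. A complex below therefore means the members found by symbol, and not all of its subunits.

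The respiratory chain passes electrons from NADH (complex I) and succinate (complex II) through ubiquinone to complex III, then through cytochrome c to complex IV, which reduces oxygen. Complexes I, III and IV pump protons out of the matrix, and ATP synthase (complex V) uses the returning protons to make ATP. Most subunits are encoded in the nucleus, and the genes followed here are such nuclear genes. The head kidney of bony fish makes blood cells and holds immune cells as well as the steroid-making interrenal cells, which carry out part of steroid synthesis inside mitochondria.

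The MPLE fish ate a basal diet with 0.1% of an extract of sage and lemon verbena that contains ursolic acid, other triterpenes, verbascoside and polyphenols. The control fish ate the basal diet with 0% of it. All were juveniles of 252 g, sampled on day 133 of feeding, and all had earlier been bathed in hydrogen peroxide and formaldehyde against injuries and parasites. RNA of 18 fish per diet was combined into pools of 6 fish, giving 3 MPLE pools and 3 control pools, each on its own single-colour Agilent array. The labels do not tie pools to tanks, so a p-value here reflects pool and array variation together, and a tank effect cannot be told apart from diet. In whole tissue, fewer cells of a type and less RNA per cell cannot be told apart either. Levels are log2 processed signals minus the 75th percentile of the array, and differences are MPLE minus control on that scale.

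The arrays differed in ways that bear on every comparison. In intensity units, the 75th percentile of processed spot signals stood at 709, 485 and 570 in MPLE pools 1, 2 and 3, against 394, 468 and 133 in control pools 1, 2 and 3. Each array came from its own slide, and all 3 control arrays were scanned before every MPLE array. The count of slide positions that held both diets was 0. Slide, slide position and scan order therefore cannot be told apart from diet. A list of 9 skeletal muscle genes with a probe, of which 7 were tested, had a summed level of 3.06 to 3.75 (log2) in MPLE pools, against 4.05 to 6.15 in control pools, with control pool 3 the highest. Its 7 tested genes had differences from -3.00 to -0.32, with a median of -2.16, and 0 of them passed the adjusted threshold in either direction. At an unadjusted p under 0.05 (limma), 5 of the 7 were lower with MPLE, against 5.89% of all probes tested. The diets did not overlap for 5 of the 7, with MPLE lower, against 11.9% of all probes tested. Among these 5, the probe of ampd1 was well above background on 2 MPLE arrays and 3 control arrays, so it was tested only through the diet where it was higher. The list was chosen with earlier results of these data known, and its counts were not tested against these shares. The kidney tubule gene slc22a6l had a difference of -2.09 (adjusted p = 0.151, limma). Its probe was well above background on 2 MPLE arrays and 3 control arrays. Of 5 kidney tubule genes with a probe, it was the only 1 bright enough to be tested, so it does not stand for the list. The part of the muscle genes or of slc22a6l in the results below was not tested. Several markers of the tissue were well above background on every array. Among them were hba and alas2 of red cells, csf3r and mpx of myeloid cells, cd79b of B cells, and star and hsd3b1 of interrenal cells. Cyp17a1 of interrenal cells, and th and chga of chromaffin cells, were too dim to be tested. Some blood cell markers differed between the diets by as much as many members. The difference was 1.27 for hba, 1.14 for csf3r and 0.73 for cd8a of T cells, and -0.92 for mpx and -0.97 for itga2b of thrombocytes, all with separated diets and with limma adjusted p from 0.136 to 0.283. Of the other blood cell markers tested, mpeg1.1 of myeloid cells had -0.53 with separated diets. The diets overlapped for the rest, with 0.11 for alas2, 0.28 for lyz of myeloid cells and 0.24 for cd79b. Cd3e of T cells had 0.80 and gp9 of thrombocytes had -0.33, likewise overlapping. A spot was left out on 1 array each for hba, mpx and hsd3b1. The part of these markers in the results below was not tested either.

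Every respiratory chain and ATP synthase gene was well above background on all 6 arrays, which was so for 16868 of the 23130 probes tested. None of the member spots was marked as an outlier. In limma's test, adjusted by Benjamini-Hochberg across the 23130 probes, 0 of the 59 genes passed an adjusted p of 0.05 in either direction. Over all probes, 0.419% passed as higher and 0.0476% as lower with MPLE. At an unadjusted p under 0.05, 8 members were higher with MPLE (13.6%, against 11.5% of all probes and 7.46% of probes well above background on all arrays). Only ndufaf7 was lower at that level (1.69% of members, against 5.89% and 6.65%). The 3 MPLE arrays lay above the 3 control arrays for 12 members (20.3%, against 16.3% and 12.5%) and below them for 2 (3.39%, against 11.9% and 14.5%). The shares of higher members were near those of all probes and above those of the brighter probes, and the shares of lower members were smaller than both; no test of these shares was made.

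By complex, the middle of the distribution lay near 0 for complexes I to III and slightly above 0 for complexes IV and V. The median difference was -0.05 in complex I, -0.13 in complex II, -0.07 in complex III, 0.18 in complex IV and 0.23 in complex V. Over all members it was 0.07, over all probes tested -0.01, and over probes well above background on all arrays -0.13. A difference above 0 was found for 34 members (57.6%, against 49.3% of all probes and 40.0% of those well above background on all arrays). In complex I, 10 of 21 genes were above 0, in complex II 2 of 6, and in complex III 1 of 3. In complex IV this held for 12 of 16 genes and in complex V for 9 of 13. With arrays centred on their 10 spike-in probes, 14 members were above 0, the medians of complexes IV and V were -0.26 and -0.21, and that of all probes was -0.46. That shift of the members rests on 2 spike-in probes that differed between the diets: centred on the other 8, 39 members were above 0 and the medians of complexes IV and V were 0.26 and 0.31. Values given below for spike-in centring use all 10 probes. The medians also moved with single control pools. Without control pool 2, 24 members were above 0 and the medians were -0.12 over all members, 0.04 in complex IV and -0.034 in complex V. Without control pool 3, 42 members were above 0 and the medians were 0.05 in complex I, 0.09 in complex II, 0.05 in complex III and 0.37 in complex V. Without control pool 1, all members had a median of 0.20 and complex IV of 0.31.

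**Figure D1:**
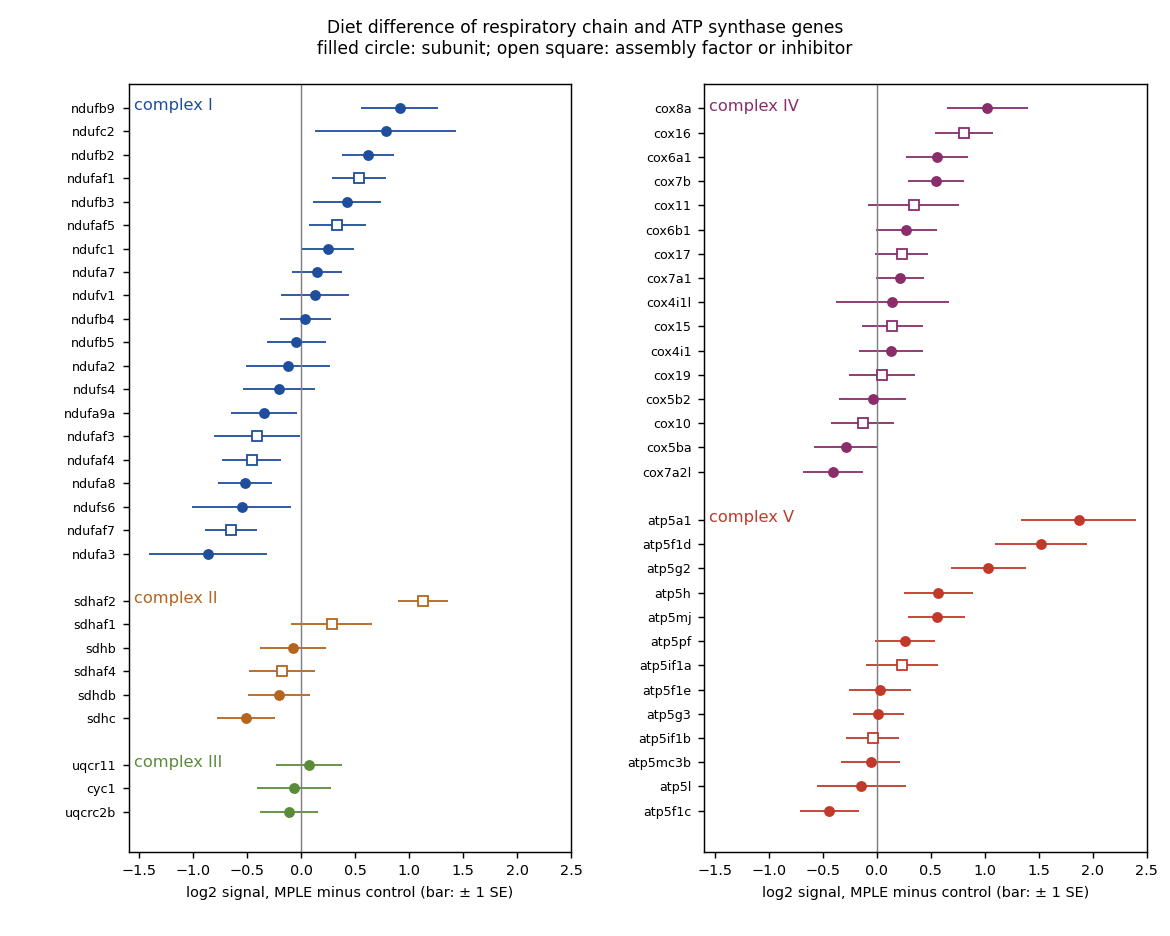
Log2 difference (MPLE minus control, x axis) of 58 of the 59 genes, by complex; bars are ± 1 SE from the limma fit, filled circles are subunits and open squares are assembly factors or inhibitors. The points of complexes I to III fall on both sides of 0, while atp5a1 and atp5f1d of complex V stand farthest to the right, at 1.87 and 1.52, with 0 genes past the adjusted threshold.

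Complex I, the NADH dehydrogenase, had a nearly even split of signs, with 2 subunits higher and 1 assembly factor lower at an unadjusted p under 0.05. Of all probes tested, 11.5% were higher and 5.89% lower at that level, and of the brighter probes 7.46% and 6.65%. The counts of the complex were not tested against these shares. The gene of ndufb9, an accessory subunit of the membrane arm, had levels of 4.64, 4.90 and 4.88 in MPLE pools, against 4.40, 4.11 and 3.18 in control pools. The diets did not overlap, and control pool 3 was far below the other arrays. The difference was 0.91 ± 0.36 (SE, n = 3 each; limma adjusted p = 0.260), and 0.55 without control pool 3. For ndufb2, another accessory subunit of the membrane arm, the levels were 5.19, 5.32 and 5.16 in MPLE pools, against 4.68, 4.37 and 4.78 in control pools. Here the lowest array was control pool 2, and the difference was 0.62 ± 0.24 (SE, n = 3 each; limma adjusted p = 0.258).

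The member of complex I that was lower was ndufaf7, a methyltransferase that takes part in the assembly of the complex. Its levels were -2.46, -2.53 and -2.45 in MPLE pools, against -1.97, -1.95 and -1.56 in control pools. The MPLE pools lay within a narrow band below all control pools, and the difference was -0.65 ± 0.24 (SE, n = 3 each; limma adjusted p = 0.238). Under the 20 alternatives run the difference spanned -1.09 to -0.52. Several of these, such as the filters and the variance model, leave the difference as it is by construction, so they do not bear on its sign.

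Among other genes of complex I, ndufaf1, which helps build the membrane arm, had a difference of 0.53 with separated diets (limma adjusted p = 0.325). The accessory subunit ndufa8, which faces the intermembrane space, had -0.52, also with separated diets (limma adjusted p = 0.331). The 5 assembly factors of complex I had a median of -0.41 and went both ways, with ndufaf1 and ndufaf5 above 0 and ndufaf3, ndufaf4 and ndufaf7 below. The 16 subunits had a median of -0.0041, with 8 above and 8 below 0, from -0.86 for ndufa3 to 0.91 for ndufb9. Both ends of this range drew on control pool 3, which for ndufa3 stood 1.91 above the mean of the other control pools. The remaining genes overlapped between the diets.

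Complex II, the succinate dehydrogenase, held the member with the smallest p of all, sdhaf2, and it is an assembly factor. Sdhaf2 helps insert FAD into the catalytic subunit SDHA, whose own gene was not analysed here. Its levels were 3.85, 3.89 and 3.90 in MPLE pools, against 2.88, 2.81 and 2.57 in control pools. The 3 MPLE pools were nearly identical and about 1 unit above the highest control pool. The difference was 1.13 ± 0.23 (SE, n = 3 each), a 2.19-fold higher signal, with a limma adjusted p = 0.0853 that misses the threshold. Before scaling, its spots read 10264, 7169 and 8508 intensity units in MPLE pools, against 2898, 3281 and 791 in control pools. Unscaled readings carry the brightness of the array. Those of uqcrc2b of complex III, which overlapped after scaling, separated too, at 1521, 1374 and 1422 in MPLE pools against 923, 1136 and 452. With arrays weighted by their quality the limma adjusted p of sdhaf2 was 0.0411. Its adjusted p under the alternatives spanned 0.0411 to 0.467, and its difference spanned 0.69 to 1.23.

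The subunit genes of complex II did not share the position of sdhaf2, as all 3 had differences below 0. The membrane anchor sdhc had 2.36, 2.58 and 2.43 in MPLE pools, against 3.20, 2.57 and 3.14 in control pools. Control pool 2 overlapped with the MPLE pools, and the difference was -0.51 ± 0.27 (SE, n = 3 each; limma adjusted p = 0.364). The other anchor, sdhdb, had a difference of -0.21 and the iron-sulfur subunit sdhb of -0.08. The assembly factor sdhaf1, which serves iron-sulfur insertion into SDHB, had 0.28, and sdhaf4, which binds SDHA once it carries FAD, had -0.18. The diets overlapped for all of these, with limma adjusted p from 0.364 to 0.898. The sign of sdhb changed in 5 of the 20 alternatives, up to 0.34 under normexp background correction. That of sdhaf4 changed in 3, up to 0.50 with the deposited values, and that of sdhaf1 in 2, down to -0.16 with spike-in centring. Without control pool 3, sdhb and sdhaf4 stood at 0.11 and 0.06.

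**Figure D2:**
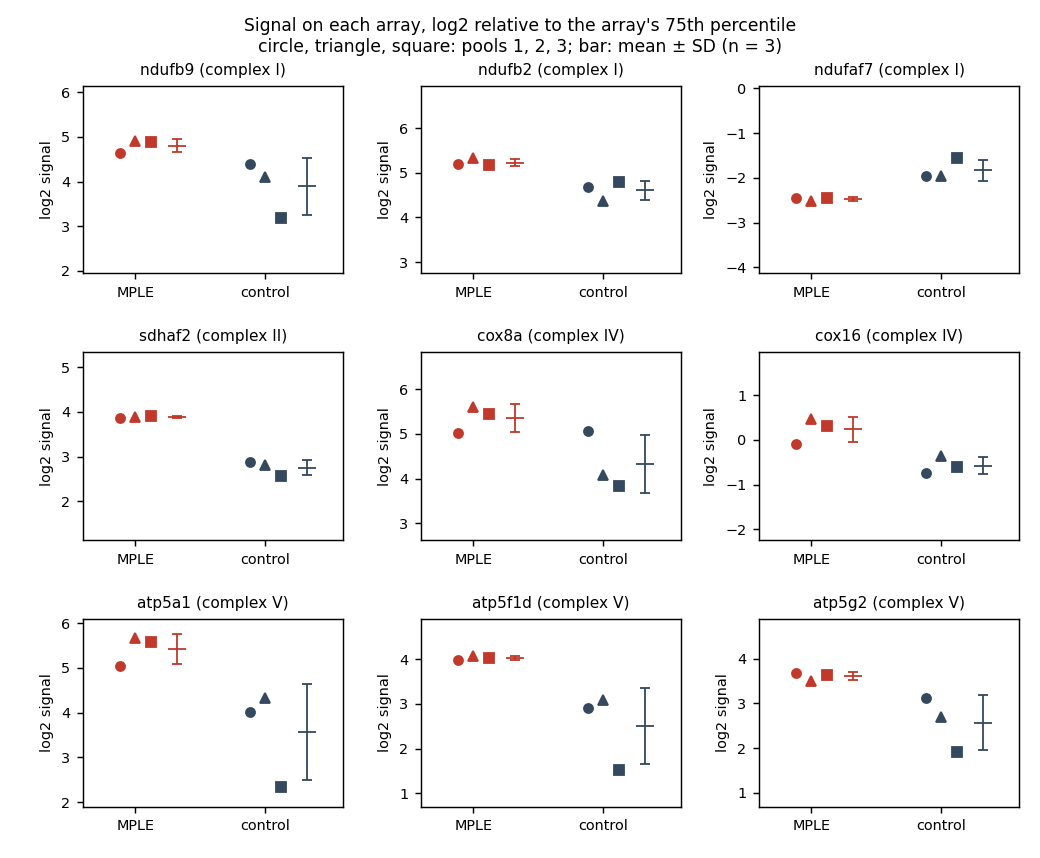
Level on each array (y axis, log2 signal relative to the 75th percentile of the array) of the 9 genes with an unadjusted p under 0.05; circle, triangle and square are pools 1, 2 and 3, and the bar is mean ± SD (n = 3), with MPLE left of control. The MPLE pools lie close together in most panels, and in atp5a1, atp5f1d, atp5g2 and ndufb9 control pool 3 lies well below the other control pools.

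Complex III, the cytochrome bc1 complex, showed the smallest differences, but only 3 genes were read for it. The 3 genes that the symbol rule found were cyc1, which encodes cytochrome c1, uqcrc2b, a core protein, and uqcr11, a small subunit. For cyc1 the levels were 3.42, 4.03 and 3.87 in MPLE pools, against 4.07, 3.24 and 4.22 in control pools. Those of uqcrc2b were 1.1, 1.50 and 1.32 in MPLE pools, against 1.23, 1.28 and 1.76 in control pools. Uqcr11 had 1.08, 1.25 and 1.01 in MPLE pools, against 1.58, 0.66 and 0.89 in control pools. The diets overlapped for all 3 genes. The differences were -0.07 ± 0.34 for cyc1, -0.11 ± 0.27 for uqcrc2b and 0.07 ± 0.31 for uqcr11 (SE, n = 3 each), with limma adjusted p from 0.830 to 0.922. Each sign changed in at least 4 of the 20 alternatives, so no direction is given.

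Complex IV, cytochrome c oxidase, had 12 of 16 genes above 0, with 1 assembly factor and 1 subunit at an unadjusted p under 0.05. Of all probes tested, 49.3% were above 0 and 11.5% were higher at that level, and of the brighter probes 40.0% and 7.46%. The counts of the complex were not tested against these shares. Cox16, a factor that helps assemble the copper-containing subunit COX2 in humans, had levels of -0.09, 0.47 and 0.32 in MPLE pools, against -0.75, -0.36 and -0.61 in control pools. The diets did not overlap, and the difference was 0.81 ± 0.27 (SE, n = 3 each; limma adjusted p = 0.196). It was 0.27 under normexp background correction and 0.37 with spike-in centring. The small membrane subunit cox8a had 5.01, 5.61 and 5.44 in MPLE pools, against 5.06, 4.09 and 3.84 in control pools. Control pool 1 lay just above MPLE pool 1, so the diets overlapped, and the difference was 1.03 ± 0.38 (SE, n = 3 each; limma adjusted p = 0.234).

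Some further subunits of complex IV separated the diets with smaller differences. Cox7b, a small membrane subunit, had a difference of 0.55 (limma adjusted p = 0.328). For cox6a1, the isoform that mammals express outside muscle, it was 0.56 (limma adjusted p = 0.350). Cox7a1, the isoform that mammals express in heart and skeletal muscle, had 2.15, 2.24 and 2.15 in MPLE pools, against 1.94, 2.01 and 1.94 in control pools. Its pools were alike within each diet, and the difference was 0.22 ± 0.22 (SE, n = 3 each; limma adjusted p = 0.606), or -0.23 with spike-in centring.

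Cox7a2l, which in mammals joins complexes III and IV into supercomplexes, had the lowest value of complex IV, -0.40 ± 0.28 (SE, n = 3 each; limma adjusted p = 0.455), with overlapping diets. It turned positive, up to 0.22, under normexp background correction and with the deposited values. The regulatory subunit cox4i1 and the gene named cox4i1l had differences of 0.13 and 0.15, which is 0.01 apart, although cox4i1l ran from 1.14 to 3.24 among the control pools. Both turned negative with spike-in centring, at -0.31 for cox4i1 and -0.30 for cox4i1l, and also without control pool 2. The 6 assembly factors of complex IV had a median of 0.19. Beside cox16 they were the copper carriers and chaperones cox11, cox17 and cox19 and the heme A enzymes cox10 and cox15, with differences from -0.13 for cox10 to 0.34 for cox11, all overlapping.

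Complex V, ATP synthase, held the 2 widest differences of all members, in the genes of its alpha and delta subunits. Atp5a1 encodes the alpha subunit of the catalytic head. Its levels were 5.05, 5.67 and 5.57 in MPLE pools, against 4.01, 4.33 and 2.33 in control pools. All MPLE pools were above all control pools, and control pool 3 was the lowest by a wide margin. The difference was 1.87 ± 0.53 (SE, n = 3 each), a 3.66-fold higher signal, with a limma adjusted p = 0.152. Without control pool 3 it was 1.26, with an adjusted p = 0.0956, and the adjusted p under the alternatives spanned 0.0581 to 0.427.

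Atp5f1d encodes the delta subunit at the foot of the central stalk. It had 3.98, 4.07 and 4.03 in MPLE pools, against 2.90, 3.09 and 1.53 in control pools. As for atp5a1, control pool 3 was the lowest array, while the MPLE pools were closer together (SD 0.05, against 0.33 for atp5a1). The difference was 1.52 ± 0.43 (SE, n = 3 each), a 2.87-fold higher signal (limma adjusted p = 0.148), and 1.03 without control pool 3. The gene atp5g2, one of 3 here for subunit c of the rotating ring, had 3.68, 3.50 and 3.63 in MPLE pools, against 3.12, 2.69 and 1.90 in control pools. Its diets did not overlap, and the difference was 1.03 ± 0.35 (SE, n = 3 each; limma adjusted p = 0.203).

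The other genes of the same parts did not stand with these. The remaining subunit c genes, atp5g3 and atp5mc3b, had differences of 0.02 and -0.06, with overlapping diets. The gamma subunit gene atp5f1c, which forms the shaft of the central stalk, had 3.98, 4.26 and 4.25 in MPLE pools, against 4.90, 4.21 and 4.70 in control pools. Its difference was -0.44 ± 0.28 (SE, n = 3 each; limma adjusted p = 0.425), and a second, dimmer probe of the gene gave -0.28. Under normexp background correction its difference was 0.04. The epsilon subunit gene atp5f1e, also of the central stalk, had 0.03. Thus the central stalk genes with a probe had 1 value well above 0, 1 near 0 and 1 below 0. In the peripheral stalk, atp5h (subunit d) had 0.57 and atp5pf (coupling factor F6) had 0.26, both overlapping.

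The small subunit atp5mj separated the diets at 0.55 (limma adjusted p = 0.323), and atp5l, subunit g, had -0.14. The paired genes of the inhibitor of ATP hydrolysis differed by 0.27 from each other, with 0.23 for atp5if1a and -0.04 for atp5if1b, both overlapping. Neither sign held under every alternative. Over the 11 subunits of complex V the median was 0.26, and over the 2 inhibitor genes 0.10.

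Across all complexes, the 43 subunits had a median difference of 0.04, with 24 above 0 and 6 higher at an unadjusted p under 0.05. The 16 assembly factors and inhibitors had a median of 0.19, with 10 above 0, and 2 higher and 1 lower at that level. Those 3 were sdhaf2, cox16 and ndufaf7. Of all probes tested, 11.5% were higher and 5.89% lower at that level, and of the brighter probes 7.46% and 6.65%. A difference above 0 was found for 49.3% of all probes and 40.0% of the brighter ones. The counts of the 2 classes were not tested against these shares, so they are not read as a property of either class. No test of the difference between these classes was made.

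The spread between pools was unequal. For 56 of the 59 genes the SD was larger among control pools than among MPLE pools, with a median SD of 0.15 in MPLE pools and 0.42 in control pools. Over all probes tested the medians were 0.21 in MPLE pools and 0.50 in control pools, so the larger spread among control pools was found over the whole array too. Control pool 2 was the lowest array for 32 members and the highest for 0. Control pool 3 was the highest array for 25 members and the lowest for 15. The same counts over all probes were not made, so these are not read as a trait of the members. Over all probes tested, the median deviation was likewise lowest in control pool 2, at -0.18, and highest in control pool 3, at 0.10. Of the 8 members higher with MPLE at an unadjusted p under 0.05, 6 were lowest on control pool 3. Selecting members as higher with MPLE favours a control pool as the lowest array. The same share over all probes higher at that level was not made, so this count is not read as a trait of the members either.

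On control pool 3, the dimmest array, genes of the same complex deviated in both directions. Relative to the mean of the other control pools, 6 members stood more than 1 unit lower there, and 5 stood more than 1 unit higher. The share of all probes that deviated as much was not computed, so these counts are not read as a trait of the members. The lower ones, named after their values were seen, were ndufc2 (-2.32), atp5a1 (-1.84), atp5f1d (-1.47), cox11 (-1.30), ndufb9 (-1.07) and atp5g2 (-1.004). The higher ones, likewise named afterwards, were ndufa3 (1.91), ndufs6 (1.55), cox4i1l (1.52), ndufaf3 (1.29) and atp5l (1.22). Genes of complexes I, IV and V thus stood on both sides. Of the 4 named members of complex V, 3 were those with the widest diet differences of that complex. Control pool 3 enters the control mean, so a low value there widens a positive diet difference by construction. The cause of the deviations on control pool 3 was not tested.

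**Figure D3:**
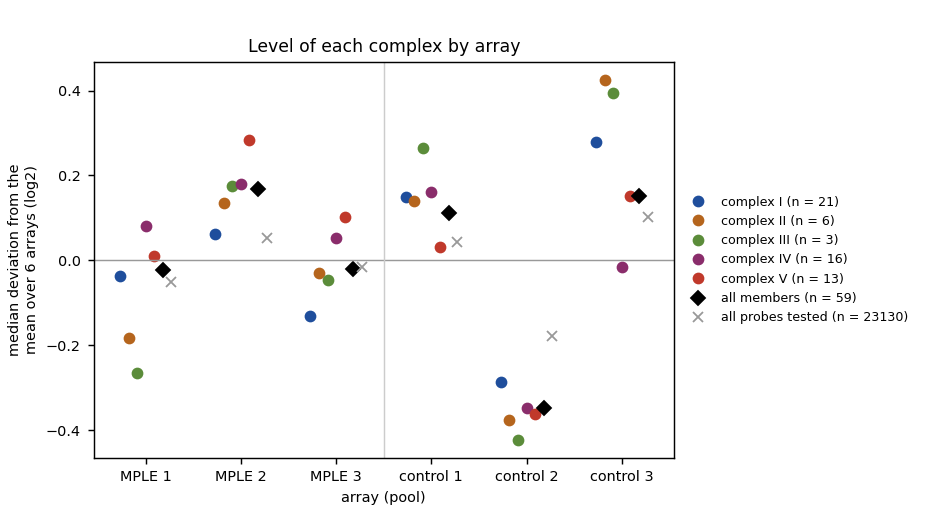
Median over the genes of each complex of the deviation from the gene's mean over the 6 arrays (y axis, log2), for each array (x axis, MPLE pools left of control pools); crosses are all 23130 probes tested. Control pool 2 lies lowest for every complex, at -0.29 to -0.42, and control pool 3 lies at 0.42 for complex II and -0.02 for complex IV.

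The median deviation by array showed the same in one view. All members together stood at -0.02, 0.17 and -0.02 in MPLE pools 1, 2 and 3, against 0.11, -0.35 and 0.15 in control pools 1, 2 and 3. The corresponding values over all probes tested were -0.05, 0.05 and -0.02 in MPLE pools, against 0.04, -0.18 and 0.10 in control pools. Control pool 2 was thus low for all probes and lower still for the members. Complex V stood at 0.01, 0.28 and 0.10 in MPLE pools, against 0.03, -0.36 and 0.15 in control pools, so its pools overlapped between the diets when read as a whole.

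**Figure D4:**
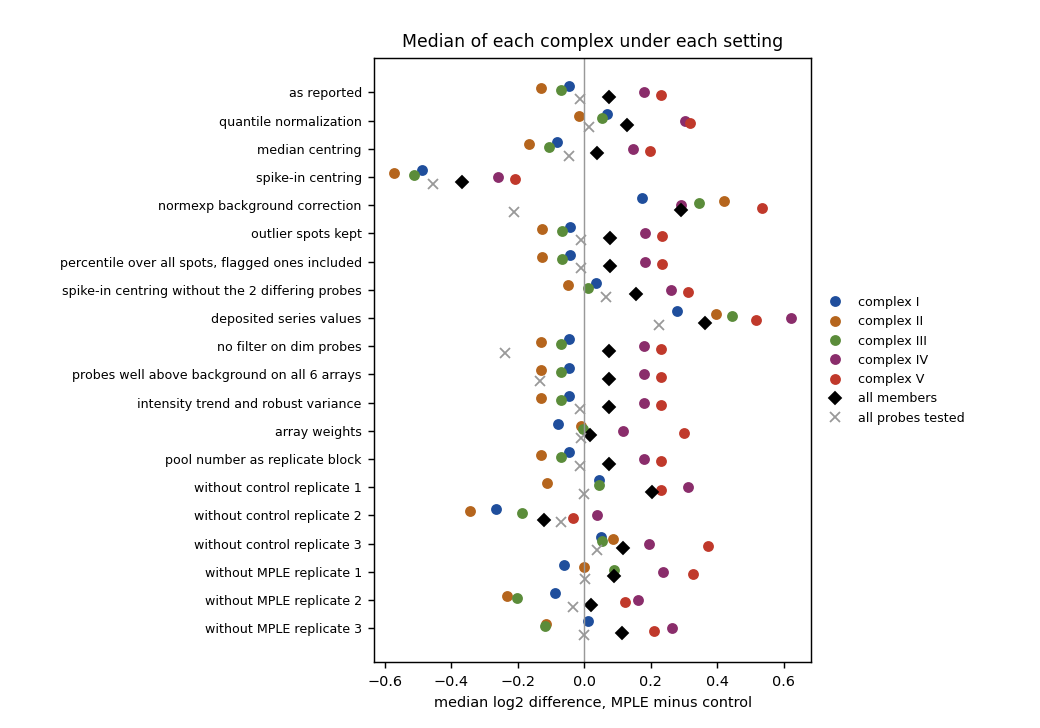
Median log2 difference (MPLE minus control, x axis) of each complex, of all members and of all probes tested, under the reported setting and under 19 alternatives (y axis). Complexes IV and V lie right of complexes I to III under the reported setting; all medians are negative with spike-in centring on all 10 probes, and all medians of the complexes are positive with normexp background correction and with the deposited values.

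Scalings that subtract 1 value per array move all complexes alike and leave their order as it is, so only the other settings bear on it. Under quantile normalization complexes IV and V had 0.30 and 0.32, against 0.07, -0.015 and 0.05 in complexes I, II and III. With the deposited values of the series table, which lack the detrending within arrays, complexes I to V had 0.28, 0.40, 0.45, 0.62 and 0.52. Under normexp background correction complex V had 0.54 and complex II had 0.42, while complex IV lay between complexes I and III.

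Genes that serve the chain from outside the 59 were read from lists of their own, from the same fit, and 0 of their tested genes passed the adjusted threshold in either direction. At an unadjusted p under 0.05, 3 of the 59 genes tested in these 7 lists were higher and 0 were lower. The higher share was 5.08%, against 11.5% of all probes and 7.46% of probes well above background on all arrays. For lower genes the background shares were 5.89% and 6.65%. Many listed symbols had no matched probe, so only 5 of 21 were read for the citric acid cycle and 6 of 18 for mitochondrial DNA. Redox defence had 5 of 14, and cristae and dynamics 5 of 18. Of 21 further assembly and copper delivery genes, 12 were above 0, with a median of 0.10. The smallest p among them belonged to pet117, a complex IV assembly factor, at 1.04 ± 0.34, and to uqcc1, a complex III assembly factor, at 0.64 ± 0.31 (SE, n = 3 each; limma adjusted p = 0.193 and 0.337). The probe of pet117 was well above background on all MPLE arrays and on 2 control arrays.

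Genes that bring electrons to the chain were split. Of 7 tested genes for ubiquinone synthesis and electron transfer flavoprotein, 3 were above 0, with a median of -0.17. Coq4, a ubiquinone synthesis factor, had -0.70, and etfdh, the flavoprotein's oxidoreductase, had 0.36, both overlapping. The 4 tested genes of the citric acid cycle and its entry lay between -0.19 and 0.10, with suclg2, a succinyl-CoA ligase subunit, at the lower value and pdhx of the pyruvate dehydrogenase complex at 0.09. Of 3 genes for the upkeep and reading of mitochondrial DNA, tfb1m, an rRNA methyltransferase, had -0.51 and polg, the DNA polymerase, had -0.25.

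Protein import had 15 tested tomm and timm genes with a median of 0.15 and 10 above 0. Among them tomm22, a receptor of the outer membrane, had 0.73, 1.09 and 1.02 in MPLE pools, against -0.05, -0.22 and 0.62 in control pools. The diets did not overlap, and the difference was 0.83 ± 0.30 (SE, n = 3 each; limma adjusted p = 0.232). Timm8b, a small intermembrane chaperone, had 0.59. The gene timmdc1 falls in this list by its symbol and also among the assembly genes.

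Of 5 genes of mitochondrial redox defence, 2 were above 0, with a median of -0.19. Aifm1, a flavoprotein needed to build complex I in mammals, had 1.76, 2.22 and 2.15 in MPLE pools, against 1.63, 0.84 and 0.57 in control pools. Its diets did not overlap, and the difference was 1.03 ± 0.34 (SE, n = 3 each; limma adjusted p = 0.198). Sod2, the matrix superoxide dismutase, had 0.77, with control pool 3 the lowest array and overlapping diets. Of 5 genes of cristae and mitochondrial dynamics, 3 were above 0, with a median of 0.20. Apool, a cristae organising protein, had -0.54 with separated diets (limma adjusted p = 0.322), and oma1, an inner membrane protease, had 1.53 ± 0.98 (SE, n = 3 each; limma adjusted p = 0.430), its probe being well above background on only 1 control array.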

How the data were processed

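Per the file headers, arrays of design 084881 were read with Feature Extraction 10.7.3.1 (protocol GE1_107_Sep09). Each processed spot intensity, on which the reported values rest, had its background subtracted and was detrended by that software, without scaling across arrays. The authors' deposited series table holds log2 of the background-subtracted intensity without the detrending, matched within 5e-09. The text calls the values of that series table the deposited values. The design text in the labels speaks of a reference design, whereas the files hold 1 colour, and the files were followed. Spots flagged as outliers were left out (6 to 205 per array), and 0 spots were saturated. The 75th percentile of each array over spots that are not controls was subtracted from log2 intensity, and repeat spots were averaged. A probe was tested if well above background on 3 of 3 arrays of a diet and with a value on at least 2 arrays of each. Diet alone was fitted with limma 3.58.1 in R 4.3.3 (lmFit and eBayes, two-sided, Benjamini-Hochberg over 23130 probes, threshold 0.05). The number of arrays limits the precision. The method was tested on simulated data with the same spread in both diets, so that test does not cover the larger spread among control pools.

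Accessions in 40932 of 42386 probe names were matched without versions to RefSeq genes of assembly Ssal_v3.1, giving 25641 probes a gene. The probes' genome build was not given in the sources used here; no coordinates are printed. A gene was read at its brightest probe. Probe sequences were not used here, and signal shared between duplicated gene copies was not tested. The members and lists were chosen with earlier results of these data known. Text names follow a rule: members of complexes II and III, the 6 smallest p in each other complex, pairs of near-identical symbols, the 3 smallest p among assembly factors and the 2 of each further list; 1 member that the rule names is counted but not reported here; other members are given for their role or position and were named after their values were seen. Pool numbers did not pair the samples (correlations of deviations -0.177, -0.340 and 0.083). Alternatives were other scalings, background correction, filters, variance models, weights, a pool block and leaving out each array.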

Additional observations from a re-analysis of the deposited data

Results flagged for a closer look

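A signal outside the comparison differed between the diets. The arrays carry 10 spike-in probes for RNA added in fixed amounts at labelling. Probe E1A_r60_3 read -1.57, -2.01 and -1.72 in MPLE pools, against -5.03, -4.67 and -4.33 in control pools, a log2 difference of 2.91. Among spots that are not controls, the lowest level called well above background was -4.44, -3.82 and -4.29 in control pools 1, 2 and 3. The control readings of this probe lay below those levels, so the size of its difference is uncertain. Probe E1A_r60_n9 read 8.58, 8.44 and 8.50 in MPLE pools, against 6.94, 6.53 and 5.61 in control pools, a log2 difference of 2.15. The other 8 spike-in probes differed by -0.49 to 0.71. The mean difference was 0.44 over all 10 spike-in probes and -0.08 over the other 8. Centring on all 10 therefore lowers every member by 0.44, and centring on the other 8 raises every member by 0.08. The reported values use no spike-in probe.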

How the results depend on the processing

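Under the 21 alternatives run, the count of members lower past the adjusted threshold stayed at 0. The count higher was 1 with array weights and 1 at an adjusted threshold of 0.1. At an unadjusted p under 0.05, the 8 higher members became 4 with median centring, 1 with spike-in centring, 4 with the deposited values and 5 with the pool number as a block, and 3 to 11 when each array was left out. The 1 lower member became 2 with quantile normalization, normexp correction and array weights, 14 with spike-in centring, 0 with median centring, the deposited values, no filter, an intensity trend and the pool block, and 0 to 7 when each array was left out, the 7 without control pool 2. Spike-in centring moved the median of all members to -0.37 and those of complexes I to V to -0.49, -0.57, -0.51, -0.26 and -0.21, with all probes at -0.46; without the 2 spike-in probes that differed between the diets, chosen after seeing the data, these were 0.15, 0.04, -0.05, 0.01, 0.26, 0.31 and 0.07, with 9 higher and 1 lower member. Normexp correction gave 0.29 for all members, 0.42 for complex II, 0.34 for complex III, 0.54 for complex V and -0.21 for all probes. The deposited values gave 0.36 for all members, 0.28, 0.40, 0.45, 0.62 and 0.52 for complexes I to V, and 0.22 for all probes. Leaving out each array moved complex V between -0.034 and 0.37. The median of all probes was -0.24 with no filter and -0.13 for probes well above background on all arrays, which changes the probes tested and not the members. Against 34 members above and 25 below 0, the split was 14 and 45 with spike-in centring, 41 and 18 with normexp correction, 40 and 19 with the deposited values, 24 and 35 without control pool 2 and 42 and 17 without control pool 3. Spike-in centring shifts all members by 1 value; the cause of the other moves was not tested. The pool block raised the probes past the adjusted threshold to 475, against 108, and pool numbers pair nothing in the labels. Over all probes the same count was 24 with quantile normalization, 558 with median centring, 14 with spike-in centring, 28 with normexp correction, 10 with the deposited values, 0 with no filter, 630 with array weights, 169 to 176 without control pool 3 or 2, and 0 without any 1 MPLE pool. Slide as a block was not run, since each slide held 1 array. Scaling with flagged spots included, chosen after seeing the data, left every count of members as reported.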
